A study of Mus musculus with 217 samples.

Results

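LacQ140_8M mice, in which the mutant *Htt* allele was repressed from 8 months of age, were compared with WT mice in the striatum at 12 months, 4 months after IPTG had been withdrawn. The comparison held 18 of the 217 RNA-Seq libraries of the series, 9 LacQ140_8M and 9 WT, each group with 4 females and 5 males, chosen by their labels for tissue, age and group. LacQ140_8M mice were Hdh(LacO-140Q/+):beta-actin-LacIR tg by genotype, in which 1 *Htt* allele holds an expanded repeat and lac operator sites, and received IPTG from embryonic life until 8 months. WT mice were Hdh(LacO-+/+):beta-actin-LacIR tg and never received IPTG, and every group of the series bears the repressor transgene. The other groups of the 12-month striatum served as references. WT + IPTG (10 mice) and LacQ140 (9 mice) had the WT and the mutant genotype and received IPTG throughout, and the mutant LacQ140_2M (10 mice, IPTG until 2 months) and LacQ140_A (10 mice, never IPTG) had been lowered earlier. Genotype and past IPTG exposure both separate LacQ140_8M from WT and cannot be told apart within this comparison. Libraries are named by group, sex and replicate number, as in WT F1, and total counts of the 18 libraries lay between 35505267 and 46474909.

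Huntington's disease is caused by an expanded CAG repeat in *HTT*, and the spiny projection neurons of the striatum are the cells most affected. These GABAergic neurons receive dopamine and glutamate and project along a direct pathway, with D1 receptors, substance P and dynorphin, or an indirect pathway, with D2 dopamine receptors, adenosine receptors and enkephalin. In mouse models the transcripts that define spiny neurons fall early, while genes that are normally silent in adult neurons, many of them targets of Polycomb repression, can rise. In the LacQ140 system the lac repressor binds operators placed around the start site of the mutant allele and lowers its transcription in part, without silencing it, and IPTG releases the repressor. The repressor is driven by a ubiquitous beta-actin promoter, so that lowering is not restricted to neurons. The paper measured lowering in whole tissues, as an average over cells that can differ in degree.

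The start site of *Htt* (ENSMUSG00000029104, chr5:34761740-34912534, plus strand, GRCm38) is where the operators were placed, and its upstream sequence is shown to give the context of the regulated promoter. The 250 bases before the annotated start, chr5:34761490-34761739, were taken from the RefSeq reference (GRCm38.p6) and do not contain the operators of the modified allele. Capitals mark the letters of a GC box (GGGCGG) on either strand and of a cAMP response element (TGACGTCA).

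Htt: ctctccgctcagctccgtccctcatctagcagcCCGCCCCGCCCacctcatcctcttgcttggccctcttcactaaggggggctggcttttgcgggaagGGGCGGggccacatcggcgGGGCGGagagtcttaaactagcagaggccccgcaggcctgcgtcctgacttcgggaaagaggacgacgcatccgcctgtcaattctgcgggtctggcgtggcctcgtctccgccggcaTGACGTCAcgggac

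This stretch held 22 CG dinucleotides, 4 GC boxes, of which the first pair overlap, and 1 response element. A match of letters describes the window only.

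*Htt* transcripts, summed over both alleles, were lower in LacQ140_8M than in WT striatum. Levels are given as CPM, read counts normalised to TMM-scaled library sizes. The WT libraries had 118 to 150 CPM (median 137) and the LacQ140_8M libraries 93.05 to 120 CPM (median 112), and 7 of 9 LacQ140_8M libraries lay below every WT library. The log2 fold change was -0.27 (SE 0.07, adjusted p = 0.0046 by edgeR's quasi-likelihood test). This small change lost its call, by the bound on fold change, when any of WT M2, M3, M4, M5, LacQ140_8M F5 or M4 was left out, with values between -0.26 and -0.24 in those fits, and at -0.24 without the 5 libraries described next. Across all settings the change ran from -0.42 to -0.24 on the log2 scale. *Htt* was also lower in LacQ140 than in WT + IPTG, with medians of 113 and 149 CPM and a log2 change of -0.40 (SE 0.07, adjusted p = 9e-06), although LacQ140 mice were not lowered. LacQ140_8M and LacQ140 did not differ in this total (SE of the log2 difference 0.07, adjusted p = 1.0). The gene counts do not separate the alleles, so lowering of the mutant transcript could not be checked from them. Medians in LacQ140_2M and LacQ140_A were 101 and 91.0 CPM. *Abhd1*, a hydrolase gene on the same chromosome (chr5:30950066-30955091), followed the genotype instead. Its level was 1.52 to 2.80 CPM (median 2.38) in WT and 5.85 to 9.13 CPM (median 7.32) in LacQ140_8M, without overlap, and its median lay between 7.12 and 7.55 CPM in the other 3 mutant groups. In WT + IPTG, 9 of 10 libraries lay between 1.95 and 3.06 CPM and F2 had 7.75 CPM. *Abhd1* overlaps *Preb* on the opposite strand, and the strand setting of the counting is not given in the sources used here.

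Genes of neighbouring tissue varied between libraries before any comparison was made. Markers of cortical projection neurons summed to 7.76 to 105 CPM in WT (median 11.7) and to 18.2 to 83.8 CPM in LacQ140_8M (median 28.8), and markers of choroid plexus and ependyma to 52.3 to 114 and 52.3 to 360 CPM. In these sums 5 libraries stood apart, WT M1 and LacQ140_8M F2 and M3 in cortical markers and LacQ140_8M F4 and M4 in choroid plexus markers, and counts are given without them below. The slope of log2 CPM on log2 transcript length, a measure often used for RNA quality, also shifted between the groups, from a median of -0.13 in WT (-0.18 to -0.10) to -0.09 in LacQ140_8M (-0.15 to -0.05). Counts with this slope added to the model are given below, and its part in the differences was otherwise not tested. The tissue was striatum by its markers, since the 22 spiny neuron signalling genes summed to at least 12420 CPM in each of the 18 libraries. Among the reference libraries, WT + IPTG F5 and M2 were high in choroid plexus markers (445 and 361 CPM), and LacQ140 M2 had the highest cortical sum (356 CPM) and the lowest spiny neuron sum (11470 CPM) of the 57 libraries.

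At 4 months after withdrawal the LacQ140_8M striatum still differed widely from WT. A gene was called at an adjusted p under 0.05 and a change of at least 20%, in a fit of all 57 libraries of the 6 groups. Of 35386 genes tested, 2751 (7.77%) were called, with 1320 risen (3.73%) and 1431 fallen (4.04%). Most changes were modest, with a median size of 0.45 on the log2 scale among called genes and a 90th percentile of 1.33. The share called was 3.28% among genes below a mean of 1 log2 CPM, 17.7% from 1 to 5 and 12% above, and it was 11.7% of protein-coding genes. Background shares given with the lists below cover all genes tested. They are too low for expressed genes, which make up most lists, so a list can exceed them through expression level alone. Among the most expressed genes falls outnumbered rises, 469 to 247, and in the middle range rises outnumbered falls, 770 to 543. For 914 genes (2.58%) the 9 LacQ140_8M and the 9 WT libraries did not overlap. Between WT + IPTG and WT 77 genes (0.218%) were called, and 14 of them were among the 2751. The count of 77 was unstable, at 1 without WT + IPTG F1 and 412 without WT + IPTG M4. Without the 5 libraries that stood apart 2252 genes were called, 1983 of them shared, with 1178 risen and 1074 fallen. With the length slope in the model 2065 were called, 1751 shared, and the split moved to 880 risen and 1185 fallen.

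Among well-expressed protein-coding genes whose groups did not overlap, the largest fall was in *Gpx6*, a selenoprotein of the glutathione peroxidase family (ENSMUSG00000004341, chr13:21312125-21319624). Its level was 5.19 to 15.3 CPM in WT (median 12.3) and 0.756 to 1.63 CPM in LacQ140_8M (median 1.16), a 9.85-fold lower level (-3.30 on the log2 scale, SE 0.19, adjusted p = 1.2e-22). All 9 LacQ140_8M mice lay below the lowest WT mouse. The largest rise by the same rule was in *Dsp*, which encodes the desmosomal protein desmoplakin (ENSMUSG00000054889, chr13:38151294-38198577), from 0.408 to 1.10 CPM in WT (median 0.834) to 3.06 to 6.56 CPM in LacQ140_8M (median 4.32), 5.96-fold higher (2.58 on the log2 scale, SE 0.21, adjusted p = 1.5e-15). Its WT level lay below the bound on the mean, which *Dsp* passed through groups where it was higher. The sequences upstream of these genes at the extremes are shown side by side, 250 bases before the RefSeq start on the plus strand of GRCm38.p6, chr13:21311953-21312202 for *Gpx6* and chr13:38151044-38151293 for *Dsp*, with GC boxes of either strand in capitals.

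Gpx6: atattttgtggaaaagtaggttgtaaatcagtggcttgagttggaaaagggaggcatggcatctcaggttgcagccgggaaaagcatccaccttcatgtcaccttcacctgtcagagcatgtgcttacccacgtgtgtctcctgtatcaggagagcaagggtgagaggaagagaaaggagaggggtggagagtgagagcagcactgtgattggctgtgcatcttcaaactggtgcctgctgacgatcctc

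Dsp: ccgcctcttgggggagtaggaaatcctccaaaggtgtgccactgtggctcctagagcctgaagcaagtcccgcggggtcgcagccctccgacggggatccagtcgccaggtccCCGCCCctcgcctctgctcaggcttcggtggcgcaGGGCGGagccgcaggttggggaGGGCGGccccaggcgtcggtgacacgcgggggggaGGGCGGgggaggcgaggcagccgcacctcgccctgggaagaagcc

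The *Gpx6* stretch held 3 CG dinucleotides and no GC box, and the *Dsp* stretch 22 CG dinucleotides and 4 GC boxes. The RefSeq start of *Gpx6* lies 78 bases inside the gene as annotated by GENCODE, so the end of that window is not upstream of the longer gene model, while the *Dsp* window ends just before its gene.

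The next largest falls were in *Slc4a11*, a plasma membrane transporter, whose median went from 15.5 CPM in WT to 3.09 CPM in LacQ140_8M (-2.36 on the log2 scale, SE 0.13), and in *Tmprss6*, a membrane serine protease, from 9.53 to 2.29 CPM (-2.30, SE 0.22). *Sec14l3* (-2.14), *Ddit4l*, a regulator of mTOR signalling (-1.86), *Vwa7* (-1.60), the angiotensin-(1-7) receptor *Mas1* (-1.52), the calcium release channel *Ryr1* (-1.50), the myosin *Myo5c* (-1.42) and *Fam83d* (-1.38) followed, on the log2 scale. *Ddit4l* had the smallest error of the group, with 23.2 to 32.3 CPM in WT, 6.42 to 8.67 CPM in LacQ140_8M and an adjusted p of 2.4e-25. Among the rises, *Sfmbt2*, a Polycomb-group protein, went from a median of 1.35 to 6.07 CPM (2.13 on the log2 scale, SE 0.12, adjusted p = 4.8e-23). *Kazald1* rose by 1.42, *Slc45a3* by 1.37, *Tmc3* by 1.34, *Rprm*, a cell cycle inhibitor, by 1.28, *Greb1l* by 1.24, the aminoacylase *Acy3* by 1.11, the actin-binding *Flnc* by 1.11 and *Pcdhb4* by 0.99 on the log2 scale. These rises leave out *Abhd1*, described above, which rose by 1.67 on the log2 scale without overlap between groups. All 20 genes had libraries of the groups apart by the rule that chose them, and 241 risen and 400 fallen genes met that rule.

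**Figure D1:**
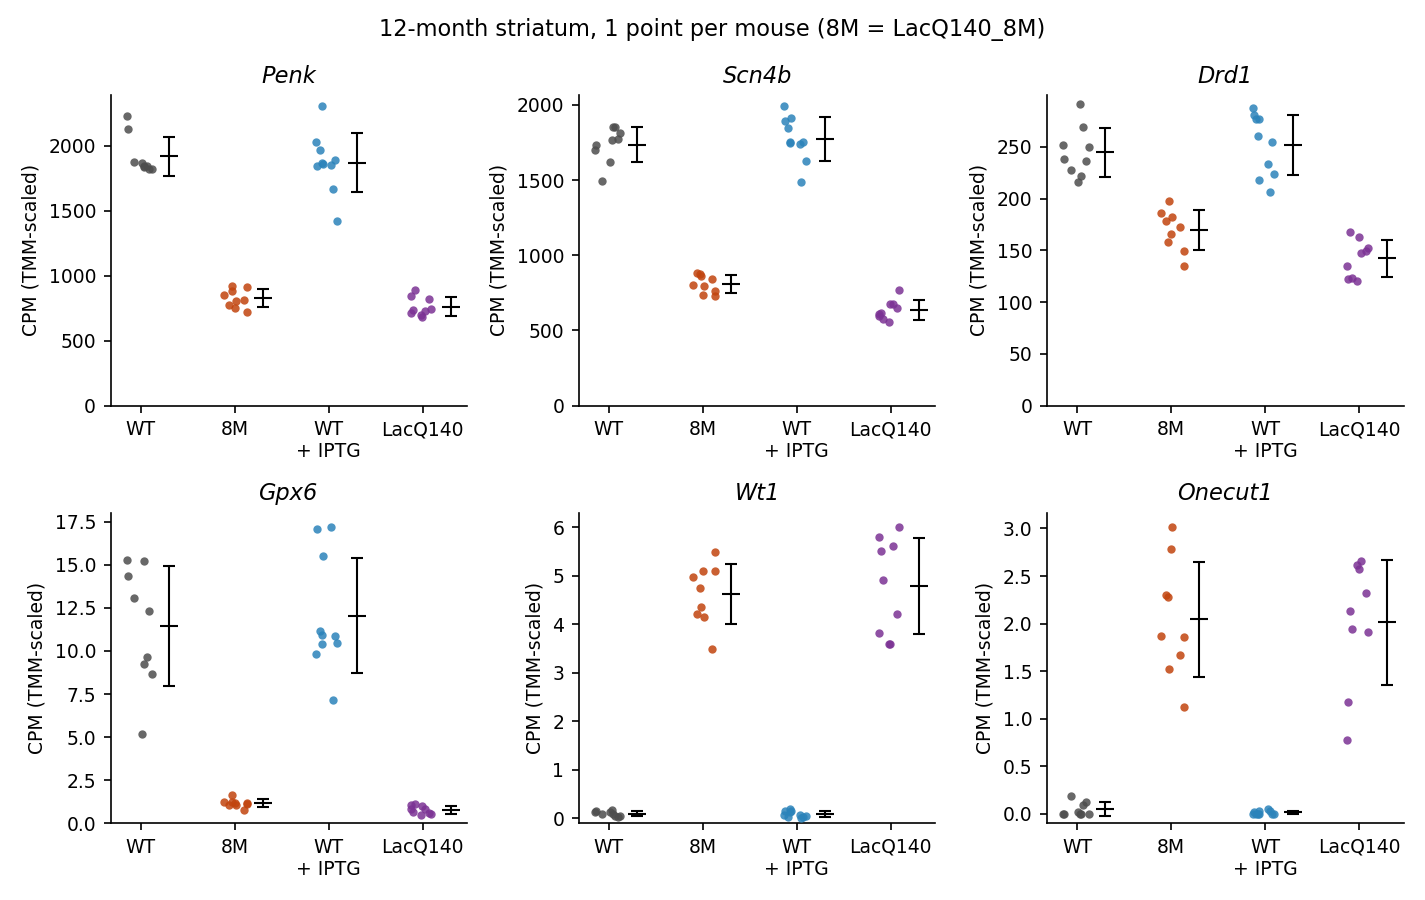
Level (CPM) of *Penk*, *Scn4b*, *Drd1*, *Gpx6*, *Wt1* and *Onecut1* in each mouse of the WT, LacQ140_8M, WT + IPTG and LacQ140 groups; points are mice and bars the mean with the SD. The LacQ140_8M mice lie apart from the WT mice for all 6 genes and close to the LacQ140 mice, with the *Scn4b* points between 730 and 882 CPM against 555 to 767 CPM in LacQ140.

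The signalling machinery shared by both kinds of spiny neuron was lower. Of 22 genes for dopamine, cAMP and calcium signalling, 20 fell and none rose (background 4.04% fallen), with a median log2 fold change of -0.63 against 0.00 over all genes tested. Their summed level was 19730 to 23140 CPM in WT and 12420 to 15420 CPM in LacQ140_8M, without overlap. In bulk tissue, fewer cells of a type and less RNA per cell cannot be told apart. The count was also 20 without the 5 libraries that stood apart and when any library was left out.

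*Scn4b*, the sodium channel subunit beta 4 that shapes the fast resurgent firing of these neurons (ENSMUSG00000046480, chr9:45138395-45154152), had 1495 to 1853 CPM in WT (median 1769) and 730 to 882 CPM in LacQ140_8M (median 800). The groups lay far apart, with a log2 change of -1.10 (SE 0.06, adjusted p = 4.8e-22). The 250 bases before its RefSeq start are shown because the gene was also called between LacQ140_8M and LacQ140, as described further on (chr9:45138374-45138623, plus strand, GRCm38.p6). This start lies 229 bases inside the gene as annotated by GENCODE, so most of the window is within the longer gene model. The window held 23 CG dinucleotides and neither motif.

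Scn4b: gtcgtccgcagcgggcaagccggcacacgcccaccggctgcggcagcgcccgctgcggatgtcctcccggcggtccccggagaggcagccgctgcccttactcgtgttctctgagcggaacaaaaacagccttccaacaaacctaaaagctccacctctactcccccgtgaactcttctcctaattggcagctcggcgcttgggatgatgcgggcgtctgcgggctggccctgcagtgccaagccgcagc

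*Arpp21*, a cAMP-regulated phosphoprotein, went from 1343 to 1831 CPM in WT to 703 to 959 CPM in LacQ140_8M (-0.89 on the log2 scale, SE 0.06, adjusted p = 2.1e-18). *Pde10a*, the phosphodiesterase that degrades cAMP and cGMP in spiny neurons, had 1174 to 1596 CPM in WT and 641 to 917 CPM in LacQ140_8M (-0.74, SE 0.09, adjusted p = 1.8e-09). *Ppp1r1b*, which encodes DARPP-32, had 2701 to 3368 CPM and 1546 to 2037 CPM in the same order (-0.74, SE 0.07, adjusted p = 5.5e-12). For these 3 genes the groups did not overlap. *Adcy5*, the main striatal adenylyl cyclase, went from a median of 1505 to 940 CPM (-0.64, SE 0.06), *Rgs9*, which turns off G protein signals, from 582 to 352 CPM (-0.70, SE 0.06), and the cannabinoid receptor *Cnr1* from 224 to 121 CPM (-0.95, SE 0.08). *Gnal*, the G protein alpha subunit downstream of D1 receptors, was lower by less than the 20% bound (-0.18 on the log2 scale, SE 0.05, adjusted p = 0.0049). *Itpr1*, the IP3 receptor, did not pass (-0.26, SE 0.11, adjusted p = 0.15).

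Indirect pathway markers had larger fold changes than most direct pathway markers, though the difference between the 2 lists was not tested. Of 5 indirect pathway genes measured, 4 fell and none rose (background 4.04% fallen), with a median log2 fold change of -0.78. *Penk*, the enkephalin precursor (chr4:4133531-4138819), had 1820 to 2233 CPM in WT (median 1848) and 724 to 925 CPM in LacQ140_8M (median 815), and the groups were well separated (-1.22 on the log2 scale, SE 0.08, adjusted p = 2.3e-20). *Adora2a*, the adenosine receptor of these cells, went from a median of 390 to 229 CPM (-0.87, SE 0.07) and *Drd2*, the D2 receptor, from 311 to 201 CPM (-0.59, SE 0.07). *Gpr6*, an orphan receptor, went from 107 to 63.7 CPM (-0.78, SE 0.07). *Sp9*, a transcription factor of the lineage, was at -0.12 and was not called.

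Of 9 direct pathway genes, 3 fell, 1 rose and 5 were not called (background 4.04% fallen and 3.73% risen), with a median of -0.18. *Drd1*, the D1 receptor, had 216 to 291 CPM in WT (median 238) and 135 to 198 CPM in LacQ140_8M (median 173), without overlap (-0.53 on the log2 scale, SE 0.08, adjusted p = 8.5e-07). *Pdyn*, the dynorphin precursor, had medians of 206 and 172 CPM with overlapping groups (-0.31, SE 0.08, adjusted p = 0.0028), a call that was lost with the length slope in the model or with both WT groups pooled. *Chrm4*, the M4 muscarinic receptor, was called at -0.38, and its call was lost without the 5 libraries that stood apart. *Tac1*, which encodes substance P, had medians of 243 and 226 CPM and was not called (-0.18, SE 0.08, adjusted p = 0.13). *Eya1* rose from a median of 6.83 to 9.75 CPM (0.40, SE 0.08).

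**Figure D2:**
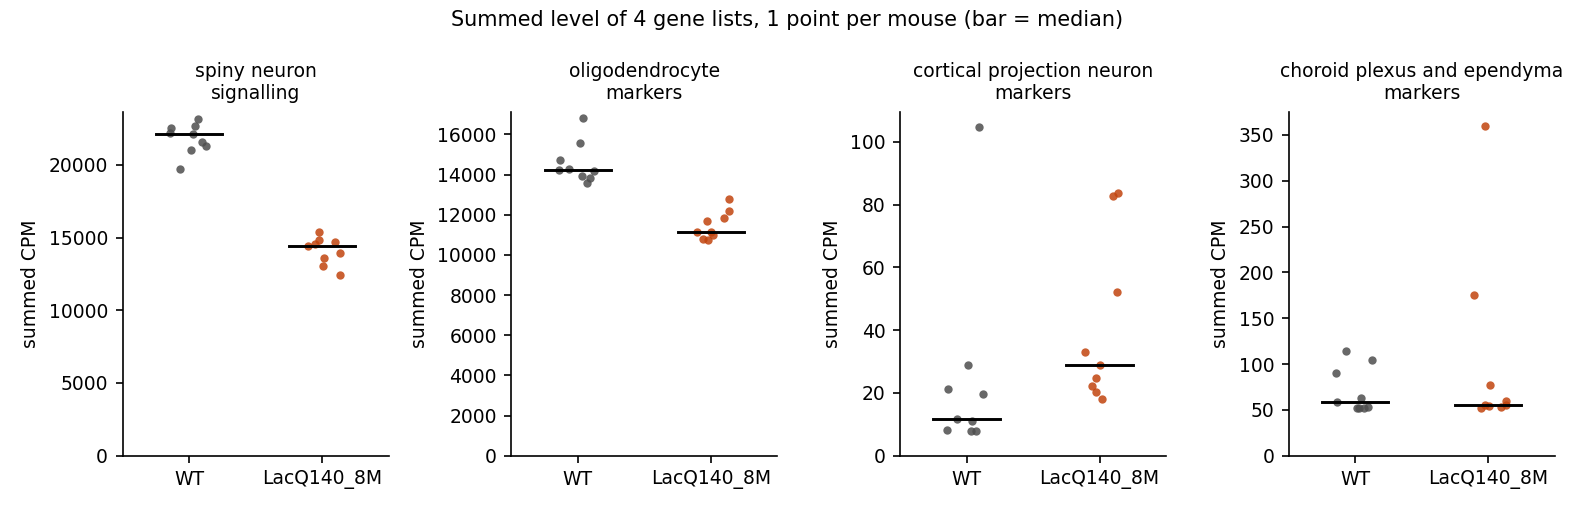
Summed level (CPM) of 4 gene lists in each WT and LacQ140_8M mouse, with the group median as a bar. The spiny neuron and oligodendrocyte sums of the LacQ140_8M mice lie below those of the WT mice, while the cortical and choroid plexus sums overlap and hold single high libraries.

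Of 14 transcription factors of the spiny neuron lineage, 6 fell and none rose (background 4.04% fallen), with a median of -0.13. *Rxrg*, a retinoid X receptor, had 136 to 187 CPM in WT and 95.1 to 124 CPM in LacQ140_8M (-0.60 on the log2 scale, SE 0.09, adjusted p = 2.3e-07). *Meis2*, a homeodomain factor of the striatal primordium, went from a median of 520 to 409 CPM (-0.34, SE 0.05) without overlap. *Bcl11b* (Ctip2) and *Foxp1* were lower by 0.28 and 0.31 on the log2 scale, close to the bound, and *Bcl11b* lost its call in 4 of 18 fits with a library left out. *Foxp2* (0.00), *Isl1* (0.06) and *Ebf1* (0.02) showed no call.

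Factors that pattern other tissues during development were expressed at low levels and several rose. Of 30 such genes, 6 rose and none fell (background 3.73% risen), and only 4 of the 30 reached a mean of 1 log2 CPM, so that most of the list could show little. The median log2 change was 0.50, or 0.58 without genes at no more than 3 counts in each group. It was 0.16 with pooled WT groups, and 4 genes rose with edgeR's filterByExpr or without the 5 libraries that stood apart. *Wt1*, the zinc finger factor of kidney and gonad development (chr2:105126529-105173616), had 0.0240 to 0.175 CPM in WT (median 0.0864) and 3.49 to 5.48 CPM in LacQ140_8M (median 4.74). Every LacQ140_8M mouse lay far above every WT mouse, and the level was 46.5-fold higher (5.54 on the log2 scale, SE 0.23, adjusted p = 5.2e-30). *Onecut1*, a factor of liver and spinal cord development, was at 0 in most WT libraries with a highest value of 0.190 CPM, and at 1.12 to 3.01 CPM in LacQ140_8M (median 1.86; 5.36, SE 0.35, adjusted p = 3.5e-22). Its relative *Onecut2* went from a median of 22.3 to 37.4 CPM without overlap (0.66, SE 0.11). *Twist1* (1.37) and *Barhl1* (1.96) were called at levels below 1 CPM, with overlap between the groups, and the call of *Twist1* was lost without the 5 libraries and with pooled WT groups.

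Hox genes, which set position along the body axis and are silent in the forebrain, were measured at still lower levels. Of 28 Hox genes with a count, 6 rose and none fell (background 3.73% risen), none reached a mean of 1 log2 CPM, and 15 had at most 3 counts in each group. Of the 6, 3 lie in the *Hoxc* cluster of chromosome 15. *Hoxc4* (chr15:103018934-103036852) had 429 counts over the 9 LacQ140_8M libraries and 7 over the 9 WT libraries, and its level was 0.532 to 1.87 CPM against 0 to 0.0716 CPM (adjusted p = 2.5e-16). *Hoxc5* had 258 counts in LacQ140_8M and none in WT, at least 84.2-fold higher against a floor of 3 counts over the group. *Hoxc6* had 44 counts against 1, a ratio of 43.1 with a 95% counting interval of 7.34 to 1740. *Hoxc5* overlaps several other genes of the cluster on the same strand, so the division of reads between them is uncertain. The neighbours *Hoxc8*, *Hoxc9*, *Hoxc10* and *Hoxc13* were not called. Of these, *Hoxc8*, *Hoxc9* and *Hoxc10* had means of at most 0.0082 CPM, with too few reads to show a change. *Hoxa7* rose from a median of 0.0716 to 0.326 CPM, *Hoxd1* from 0.0660 to 0.192 CPM, and *Hoxd8* had 16 counts against 1 (ratio 15.7, interval 2.43 to 657). The calls of *Hoxd1* and *Hoxd8* were lost without the 5 libraries that stood apart. In the other direction *Hoxa5* had 8 counts in WT and 1 in LacQ140_8M (ratio of WT to LacQ140_8M 8.17, interval 1.095 to 363) and *Hoxb5* 5 and 1 (ratio 5.11, interval 0.571 to 242), and neither was called. The median log2 change of the list was 0.69, or 0.70 without the 15 and with genes at 0 in a group set to their bound. It depended on the setting, at 0.29 with DESeq2, 0.37 with pooled WT groups and 0.47 without the 5 libraries that stood apart, where 4 genes rose. With edgeR's filterByExpr 4 genes rose and the median was 4.01. That filter removes genes with few counts, and since Hox genes are near 0 in WT, those kept pass through the mutant groups. The median of 4.01 therefore follows from the filter and is not comparable with the others. The summed Hox level was 0.170 to 0.624 CPM in WT and 1.81 to 3.63 CPM in LacQ140_8M.

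Clustered protocadherins, cell adhesion proteins whose isoforms give neurons an individual surface identity, moved mostly upward where called. Of 56 genes measured, 29 rose (background 3.73%), 1 fell and 26 were not called, with a median of 0.32. Most members of the beta cluster were among the 29, with *Pcdhb2* to *Pcdhb5* at 0.62 to 1.46 on the log2 scale. *Pcdhb4* went from 0.979 to 2.27 CPM in WT to 2.44 to 4.04 CPM in LacQ140_8M (0.99, SE 0.13, adjusted p = 3.7e-08), and *Pcdhb19* from a median of 6.28 to 11.3 CPM (0.81, SE 0.11). The summed level moved less, from 1179 to 1373 CPM in WT to 1307 to 1511 CPM in LacQ140_8M. *Pcdhgc4*, which overlaps the whole gamma cluster, was lower (-0.53, SE 0.18, adjusted p = 0.046), and this call was lost in 13 of 18 fits with a library left out. These genes resemble each other closely in sequence and many share exons, so their counts are uncertain, and the list went to 24 risen and 2 fallen with a median of 0.18 when the length slope was in the model.

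**Figure D3:**
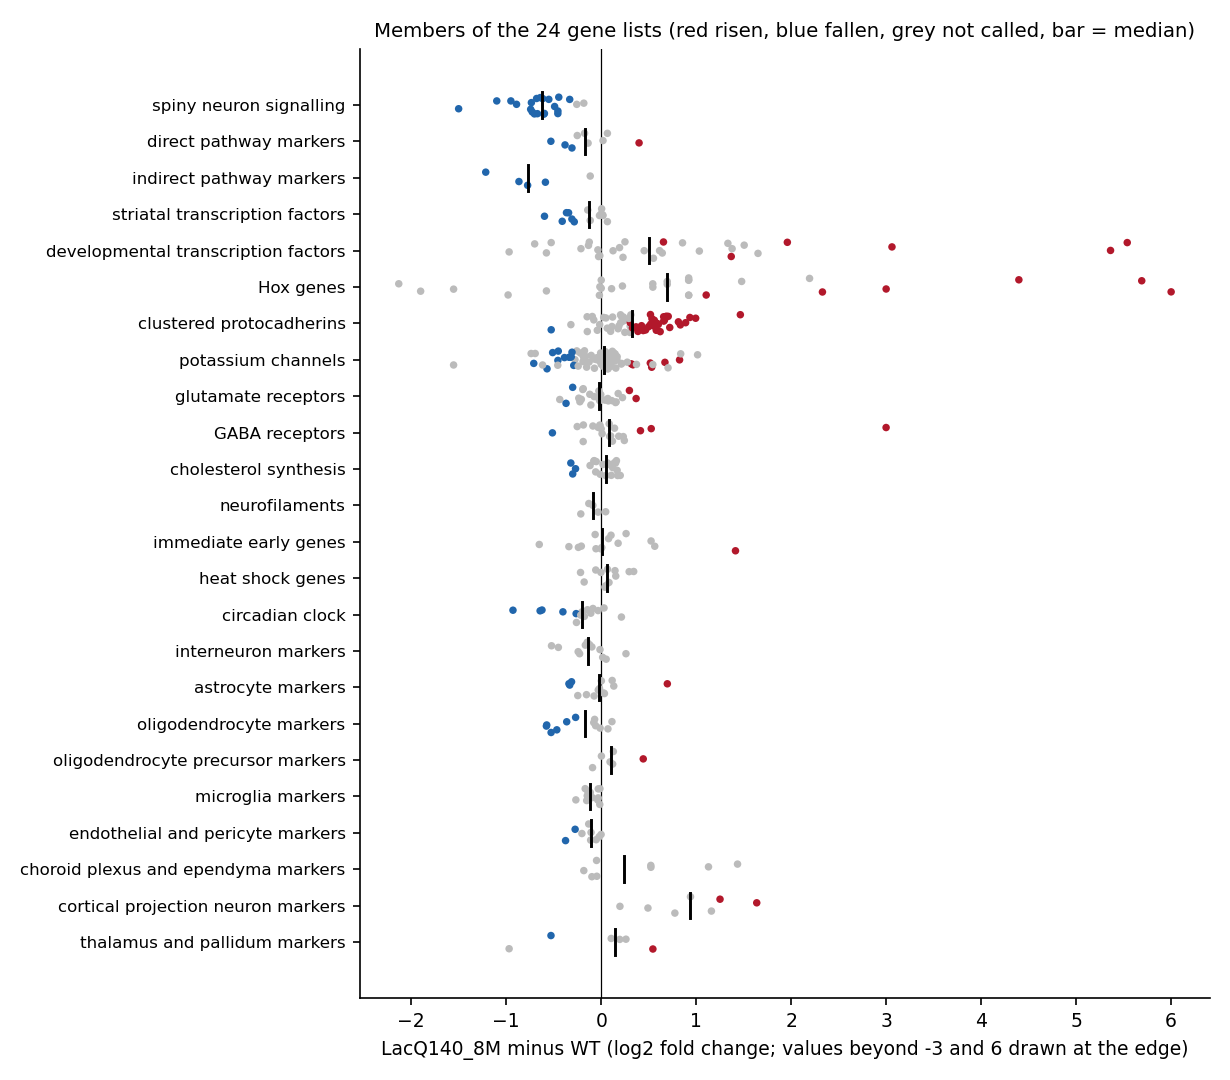
Log2 fold change of LacQ140_8M against WT for every measured member of 24 gene lists, with risen genes in red, fallen genes in blue, genes not called in grey and the list median as a bar. Values are drawn between -3 and 6, and *Hoxc5* is at the edge since its fitted value, which depends on the prior count, lies beyond 6. Spiny neuron and indirect pathway genes lie to the left, and protocadherins, Hox and developmental factors to the right.

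Ion channels and receptors moved in both directions. Of 77 potassium channel genes, 11 fell and 6 rose (background 4.04% and 3.73%), with a median of 0.03. *Kcnk2*, the background channel TREK-1, had 142 to 162 CPM in WT and 83.7 to 120 CPM in LacQ140_8M (-0.57 on the log2 scale, SE 0.06, adjusted p = 5.4e-11). *Kcnh4*, an ether-a-go-go family channel, went from a median of 44.4 to 27.8 CPM (-0.71, SE 0.08). In the other direction, *Kcng1*, a modifier of Kv2 channels, went from 35.6 to 49.7 CPM to 51.2 to 64.5 CPM (0.53, SE 0.06, adjusted p = 1.7e-09). Of 25 glutamate receptor genes, 2 rose and 2 fell, with a median of -0.02, and 6 fell with the length slope in the model or with both WT groups pooled. The kainate subunit *Grik4* rose (0.37, SE 0.07) and *Grik2* fell (-0.30, SE 0.06), *Grm4* fell (-0.37, SE 0.08), and *Grm8* was called at 0.30 (SE 0.09, adjusted p = 0.025) but lost its call without WT F2, F3 or F5 and with the length slope in the model. Of 21 GABA receptor genes, 3 rose and 1 fell, or 1 rose and 2 fell with the length slope. *Gabrd*, the extrasynaptic delta subunit, had 127 to 162 CPM in WT and 86.2 to 110 CPM in LacQ140_8M (-0.51, SE 0.05, adjusted p = 1.2e-11). *Gabra6*, the cerebellar granule cell subunit, was called as risen only through LacQ140_8M F2 with 2.90 CPM, and without that library its log2 change was 0.38 with an adjusted p of 0.85.

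Cholesterol synthesis, neurofilaments, stress and activity genes and the clock are often examined in Huntington's disease models. Of 21 genes of cholesterol synthesis, none rose and 3 fell, among them the feedback regulator *Insig1* (-0.30, SE 0.06), whose call was lost with pooled WT groups, and the sterol oxidase *Msmo1* (-0.32, SE 0.07), and the median was 0.05. None of 5 neurofilament genes and none of 12 heat shock genes was called by edgeR in the fit of 57 libraries or by DESeq2, with 1 and 2 genes at an unadjusted p under 0.05 and medians of -0.09 and 0.06, and with pooled WT groups 1 gene of each list fell, with medians of -0.16 and -0.18. Of 15 immediate early genes 1 rose, with a median of 0.01, and with pooled WT groups 4 fell, with a median of -0.37. That gene, *Nr4a2*, had overlapping groups, with 0.682 to 3.75 CPM in WT and 2.41 to 9.62 CPM in LacQ140_8M, and its highest libraries, WT M1 and LacQ140_8M M3, were among those high in cortical markers. *Fos* (0.56, SE 0.27, adjusted p = 0.21), *Egr1* (0.01, SE 0.19) and *Arc* (-0.06, SE 0.25) did not pass. Of 15 clock genes, 5 fell and none rose (background 4.04% fallen), with a median of -0.20. *Ciart*, a repressor of the clock, went from 17.4 to 37.3 CPM in WT to 10.0 to 17.2 CPM in LacQ140_8M (-0.93, SE 0.13, adjusted p = 5.2e-08), and *Npas2*, the forebrain partner of BMAL1, from a median of 84.7 to 54.9 CPM (-0.64, SE 0.06, adjusted p = 2.2e-13), both without overlap. The output factors *Dbp* (-0.62) and *Hlf* (-0.40) were lower too, and *Per3* was at the bound (-0.26) and lost its call in 12 of 18 fits with a library left out, while *Arntl*, *Clock*, *Per1* and *Per2* were not called.

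Of 12 oligodendrocyte markers, 6 fell (background 4.04%), none rose and 6 were not called, with a median of -0.17. The sum of the list was 13570 to 16840 CPM in WT and 10740 to 12780 CPM in LacQ140_8M, without overlap, a sum made up mostly of *Mbp* and *Mobp*. *Mal*, a myelin proteolipid, had 517 to 608 CPM and 343 to 391 CPM (-0.57 on the log2 scale, SE 0.06, adjusted p = 6.5e-11), and *Cldn11*, the myelin claudin, 197 to 259 CPM and 130 to 169 CPM (-0.53, SE 0.07, adjusted p = 1.1e-08), without overlap. *Mobp* (-0.58), *Aspa* (-0.36) and *Mbp* (-0.27) also fell, calls lost in 6 and 8 of 18 fits with a library left out. *Mog* (-0.08), *Mag* (0.07), *Cnp* (-0.06), *Opalin* (0.11), *Ugt8a* (-0.07) and *Ermn* (-0.01), which mark the same cells, were not called. Of 6 precursor markers, *Gpr17* rose (0.44, SE 0.13, adjusted p = 0.012), and it lost its call without the 5 libraries that stood apart, with the length slope in the model and with pooled WT groups.

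Of 14 astrocyte markers 1 rose and 3 fell (background 3.73% and 4.04%), with sums of 4452 to 5033 CPM in WT and 3876 to 4850 CPM in LacQ140_8M. *Serpina3n*, a marker of reactive astrocytes, went from a median of 12.3 to 20.7 CPM (0.70, SE 0.11, adjusted p = 1.8e-06), with 8 of 9 LacQ140_8M mice above every WT mouse, whereas *Gfap* had medians of 184 and 199 CPM and did not pass (0.13, SE 0.10, adjusted p = 0.51). *Ntsr2* fell (-0.34, SE 0.06), a call lost with the length slope in the model, and *Aldh1l1* fell (-0.33, SE 0.07). None of 13 microglial and none of 12 interneuron markers was called by edgeR in the fit of 57 libraries or by DESeq2, with 6 genes of each at an unadjusted p under 0.05 and medians of -0.12 and -0.14. An interneuron marker fell with filterByExpr and a microglial marker with only the groups compared. Microglial sums were 809 to 960 CPM in WT and 792 to 955 CPM in LacQ140_8M. Of 9 endothelial and pericyte markers, 2 fell, the pericyte gene *Rgs5* (-0.38, SE 0.07) and *Tek* (-0.27, SE 0.10, adjusted p = 0.049), the second of which lost its call in 13 of 18 fits with a library left out. None of 8 choroid plexus and ependyma markers was called by edgeR in the fit of 57 libraries or by DESeq2, with 2 at an unadjusted p under 0.05, and 1 rose with only the groups compared. Of 7 cortical markers 2 rose, among them *Nrn1* (1.25, SE 0.43), which lost its call in 11 of 18 fits with a library left out, and of 6 thalamus and pallidum markers *Prox1* rose (0.54) and *Gbx2* fell (-0.53). The part of neighbouring tissue in these calls was not tested, and *Slc17a7*, the defining cortical transporter, had 4.32 to 78.3 CPM in WT and 5.67 to 57.5 CPM in LacQ140_8M.

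A list of striatal genes shared by several Huntington's disease mouse models, from earlier work of the study's authors, was read as symbols and directions. Of the 71 genes listed as higher, 70 rose and none fell in LacQ140_8M, with a median of 0.71, and of the 195 listed as lower, 184 fell and none rose, with a median of -0.67 (background 3.73% risen and 4.04% fallen). The list was set beside these libraries by the study, so it is not taken as independent evidence of direction. Without the 5 libraries that stood apart the counts were 71 and 170.

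Genes near *Htt* were examined because they are inherited together with the modified allele. Of 227 genes tested within 5 Mb on chromosome 5, 8 rose and 13 fell, 21 in all against a background of 7.77%. *Abhd1* had the largest rise of those at over 1 CPM. *Adra2c*, an adrenergic receptor of the striatum, went from a median of 62.7 to 43.4 CPM (-0.52, SE 0.06) and *Zfyve28* from 85.4 to 64.2 CPM (-0.43, SE 0.06), and *Dpysl5* (0.37, SE 0.06) and *Acox3* (0.30, SE 0.05) rose, all 4 without overlap between groups.

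The same genotype contrast without lowering, LacQ140 against WT + IPTG, shares no library with LacQ140_8M against WT and gave 3340 called genes (9.44%), 1620 risen and 1720 fallen. It gave 3089 without LacQ140 M2, 3192 without WT + IPTG F5 and 3330 without WT + IPTG M2. Both comparisons called 1501 genes, which is 54.56% of the LacQ140_8M list and 44.94% of the LacQ140 list, and 1499 of them had the same direction. Of the LacQ140 list, 91.65% had the same sign in LacQ140_8M, against 56.59% over all genes tested and 70.46% over genes above a mean of 1 log2 CPM. Across the LacQ140 list, which was chosen on LacQ140 libraries, the median ratio of the LacQ140_8M to the LacQ140 log2 fold change was 0.633 (interquartile range 0.343 to 0.901). The controls of the ratio differ, and on these genes WT + IPTG lay below WT, with a mean score of -0.24 against WT, where LacQ140_8M scored 0.75 and LacQ140 0.96 by the measure described at the end. The 22 spiny neuron genes had a median of -0.63 in LacQ140_8M against WT and -0.74 in LacQ140 against WT + IPTG, and the 4 indirect pathway genes that fell did so in both. *Wt1* was at 5.54 and 5.70, *Gpx6* at -3.30 and -3.97, *Penk* at -1.22 and -1.30, and *Drd1* at -0.53 and -0.82, in that order.

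**Figure D4:**
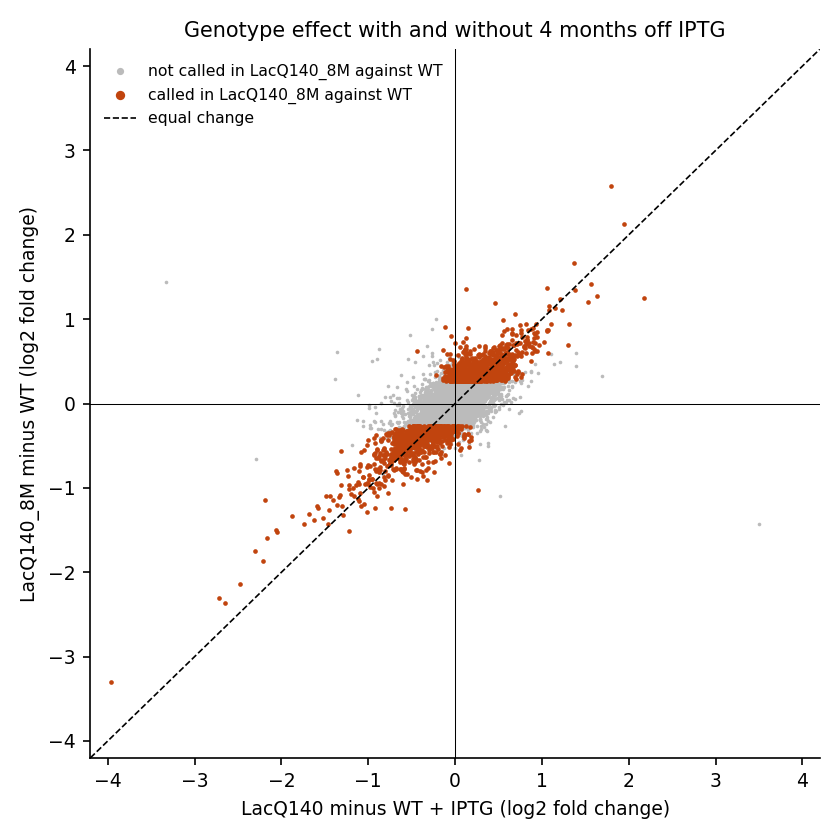
Log2 fold change of LacQ140 against WT + IPTG (x axis) and of LacQ140_8M against WT (y axis) for 13387 genes whose mean reached 1 log2 CPM; each point is a gene, genes called in LacQ140_8M against WT are orange, the dashed line marks equal change, and the 2 axes share no library. Pearson's r was 0.699 across genes, which are not independent replicates, and few strongly changed genes lie in the quadrants of opposite sign.

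Immediate early, heat shock and clock genes had more calls in the LacQ140 comparison, a difference that was not tested over the lists. Of 15 immediate early genes, 8 fell in LacQ140 against WT + IPTG (background 4.86% fallen) with a median of -0.81, of 12 heat shock genes 6 fell, and of 15 clock genes 12 fell. The control group moved for some of them. *Hspa1b*, a heat shock gene, had 1.15 to 25.1 CPM in WT + IPTG and 1.33 to 4.06 CPM in WT (1.73 on the log2 scale, SE 0.33, adjusted p = 0.013). For *Arc* the effect in LacQ140_8M minus that in LacQ140 was 0.93 (SE 0.35, adjusted p = 0.30) and for *Egr1* 0.86 (SE 0.27, adjusted p = 0.24), so the difference of the effects did not pass for either gene.

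The difference of the genotype effects was tested across all genes. By edgeR 2 genes (0.00565%) were called, with 3830 at an unadjusted p under 0.05, and the count was 17 by DESeq2 and 20 without WT + IPTG M4. *Inppl1*, a lipid phosphatase of insulin signalling, had medians of 36.7 CPM in WT, 33.8 CPM in LacQ140_8M, 42.6 CPM in WT + IPTG and 29.8 CPM in LacQ140, and a difference of 0.42 (SE 0.07, adjusted p = 0.0065). The difference was called in all 8 other settings and in all 37 fits with a library left out. *Gabra6* was the other gene, at 5.37, and rests on LacQ140_8M F2.

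Mice lowered from 8 months were also compared directly with LacQ140 mice kept on IPTG. LacQ140_8M mice had been off IPTG for 4 months, while LacQ140 mice received it until collection. Lowering of the mutant allele and the absence of IPTG itself therefore cannot be told apart in this comparison. By edgeR 2 genes (0.00565%) were called, with 1815 at an unadjusted p under 0.05, and DESeq2 called 1. *Scn4b* was higher in LacQ140_8M, with 730 to 882 CPM against 555 to 767 CPM in LacQ140 and a log2 change of 0.35 (SE 0.06, adjusted p = 0.030). This call held in 6 of 8 other settings and in 9 of 18 fits with a library left out, with an adjusted p of up to 0.35 and values of at least 0.30 on the log2 scale. *Scn4b* in LacQ140_8M was thus above LacQ140 and still 2.14-fold below WT. The second gene, the hypothalamic neuropeptide *Hcrt*, was lower by 4.72 on the log2 scale, a value set by LacQ140 M1 alone at 19.3 CPM, and it was not called without that library.

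The spiny neuron genes, which include *Scn4b*, lay to the same side in the direct comparison, and apart from *Scn4b* they were below the threshold for single genes. All 22 were higher in LacQ140_8M than in LacQ140, with a median log2 difference of 0.12, where 45.42% of all genes tested and 47.95% of genes above a mean of 1 log2 CPM were higher. All 5 indirect pathway genes and all 15 immediate early genes were also higher, and so were 174 of the 195 genes listed as lower by the study (median 0.13). By contrast 32 of the 71 listed as higher were higher, and all 12 oligodendrocyte markers were lower in LacQ140_8M than in LacQ140. *Pde10a* (0.31, SE 0.09, adjusted p = 0.68), *Drd1* (0.25, SE 0.08, adjusted p = 0.86) and *Ryr1* (0.47, SE 0.13, adjusted p = 0.62) had the values of single genes. Without LacQ140 M2 the counts were 22 of 22 spiny neuron genes (median 0.11), 4 of 5 indirect pathway genes, 15 of 15 immediate early genes and 171 of 195 genes listed as lower, and all 12 oligodendrocyte markers were again lower, with 44.46% of all genes tested higher. Other lists lay to the higher side too, with all 8 choroid plexus and ependyma markers (median 0.29), 49 of 56 protocadherins, 21 of 25 glutamate receptors and 13 of 15 clock genes, while 2 of 7 cortical markers were higher (median -0.55), a direction set by LacQ140 M2, without which 6 of 7 were higher (median 0.61). Without the 5 libraries that stood apart, 22 of 22 spiny neuron genes (median 0.15), 4 of 5 indirect pathway genes, 14 of 15 immediate early genes, 177 of 195 genes listed as lower and 6 of 8 choroid plexus markers (median 0.17) were higher, with 1 of 12 oligodendrocyte markers. The 5 libraries hold no LacQ140 mouse, so that fit drops LacQ140_8M libraries, keeps LacQ140 M2 and cannot serve as an even check. The part of neighbouring tissue in these counts was not tested. Genes of a list share cells and libraries, and these counts carry no test.

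Each mouse was placed on an axis set by other libraries, as the mean log2 CPM of the 1620 genes risen minus that of the 1720 genes fallen in LacQ140 against WT + IPTG, less the WT mean. The WT mice lay between -0.10 and 0.10 (median 0.01) and the LacQ140_8M mice between 0.60 and 0.85 (median 0.78), so that the groups were wide apart. LacQ140_2M mice lay between 0.49 and 0.79 (median 0.60) and LacQ140_A mice between 0.27 and 0.67 (median 0.57). Ranges of the 3 lowered groups overlapped, and 5 of 10 LacQ140_2M mice and 7 of 10 LacQ140_A mice were below the lowest LacQ140_8M mouse. The highest LacQ140_2M mouse, F4, had a thalamus and pallidum marker sum of 143 CPM, above the other 56 libraries, and a cortical sum of 93.2 CPM, and the highest LacQ140_A mouse, F1, had a cortical sum of 131 CPM. Without these mice the scores reached 0.66 in LacQ140_2M and 0.63 in LacQ140_A, still above the lowest LacQ140_8M mouse. These scores carry no test, and the LacQ140 mice (0.82 to 1.14) and WT + IPTG mice (-0.40 to 0.05) chose the genes.

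**Figure D5:**
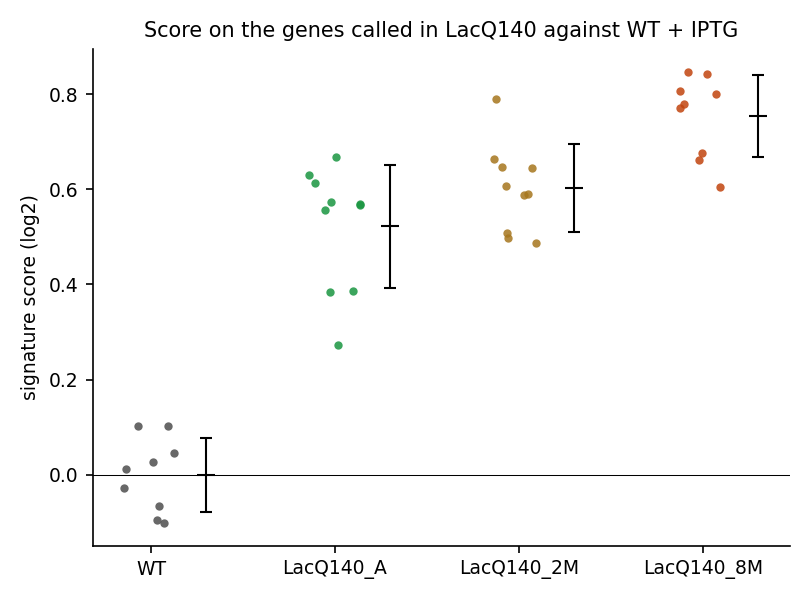
Score of each mouse (log2 scale) on the LacQ140 axis in the WT, LacQ140_A, LacQ140_2M and LacQ140_8M groups, none of which was used to choose the genes. The LacQ140_8M mice have the highest median, with a range of 0.60 to 0.85, and overlap the LacQ140_2M and LacQ140_A mice.

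Some of the named genes had the same order in their medians, with overlap between LacQ140_A and LacQ140_2M for each. The examples *Wt1*, *Gpx6* and *Hoxc4* were named for their change or p-value in LacQ140_8M against WT. That choice favours a LacQ140_8M level far from WT. The order was not counted over all named genes and was not tested, and other named genes need not follow it. *Wt1* was at 1.45 CPM in LacQ140_A, 2.23 CPM in LacQ140_2M and 4.74 CPM in LacQ140_8M, beside 4.90 CPM in LacQ140. *Gpx6* was at 2.73, 1.91 and 1.16 CPM in the same 3 lowered groups, beside 12.3 CPM in WT, and *Hoxc4* at 0.0752, 0.117 and 1.004 CPM. *Scn4b* did not separate LacQ140_A (median 910 CPM) from LacQ140_2M (969 CPM), whose ranges overlapped widely. Against the same WT libraries, 1116 genes were called in LacQ140_A, 1446 in LacQ140_2M, 2751 in LacQ140_8M and 2730 in LacQ140, and since the controls are shared these lists were not compared with each other.

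The sexes were compared within the same model. By edgeR 0 genes were called for a difference of the LacQ140_8M effect between 4 females and 5 males a group, with 1630 genes at an unadjusted p under 0.05. Within females 2797 genes were called and within males 1502, counts whose difference was not tested. The genes with the smallest p-values, *Otp* (-6.99, SE 1.46, adjusted p = 0.31) and *Casr* (-5.62, SE 1.29, adjusted p = 0.35), are near 0 CPM in most libraries and rest on WT M1 and LacQ140_8M F5.

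Promoter letters were counted for genes matched by symbol to the RefSeq table (GRCm38.p6), in windows from 250 bases before to 50 after each start, on both strands. The risen genes matched at 913 of 1320, with 1177 promoters, and the fallen at 944 of 1431, with 1232 promoters. Risen genes had a median of 18 CG dinucleotides per window, fallen genes 12 and all tested genes 13. A GC box stood in 58.4% of promoters of risen genes, 47.9% of fallen genes and 46.9% of all tested genes (35.7% of all windows in the table). The cAMP response element stood in 2.97%, 1.95% and 2.30% (1.79% of all windows), and in none of 36 promoters of 18 spiny neuron genes.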

How the data were processed

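RNA of the 12-month striatum, labelled total RNA as extracted and mRNA in the titles, was sequenced, and the values the authors deposited are expected counts of each gene, not normalized. The labels name GRCm38 in the submitters' processing notes, and the aligner, the counting program and its strand setting are not given in the sources used here. Of nonzero values 32.28% were not whole, and all were rounded. Identifiers were matched to GENCODE vM21 (54495 of 54532). Groups came from the labels, which name separate mice.

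Genes with at least 1 count in 57 libraries (35386) entered a quasi-likelihood fit in edgeR 4.0.16 and R 4.3.3 (TMM, group means only), with no further filter on low counts. P-values were adjusted by Benjamini-Hochberg, calls needed a fold change of at least 1.2, and the SE was taken from the F statistic. CPM values use TMM-scaled library sizes, and scores a prior count of 2. Counting intervals are 95% intervals and, like floors, cover counting error only.

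The comparison and the gene lists were chosen with earlier results of these data known. Named genes are *Htt* and *Abhd1*, genes the paper names for striatum, the 10 largest rises and falls among called protein-coding genes above a mean of 1 log2 CPM without overlap, up to 2 genes per direction of each list by p-value, up to 3 per direction for the direct comparison and the difference of effects, 2 for sex, and called genes within 5 Mb of *Htt*. *Abhd1* is not counted among the 10 rises. Further list members were named after their values were seen.

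The labelled sexes matched the data in all libraries (0 against), and of 72 pairs of libraries within a group none agreed within sampling noise (smallest chi-square per degree of freedom 8.02). On simulated counts the test was checked before use. Alternatives were DESeq2 1.42.0, its size factors, edgeR's filterByExpr, sex as a covariate, a replicate block, only the groups compared, the length slope, pooled WT groups, no fold bound and each library left out. Leaving out 5 libraries, and 2 for the score, was chosen after seeing the data. Python 3.11.15 was used for the rest. Some genes are not reported here by name. Libraries of 6 months and of cortex were not analysed here.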

Additional observations from a re-analysis of the deposited data

Results flagged for a closer look

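For the named genes in WT and LacQ140_8M and the score in the 4 groups that did not choose its genes, 184 groups of 9 or 10 values were examined. In 14 of them the highest or lowest library lay far from the others, and chance alone flags about 1 in 20. Some were in libraries already seen to stand apart. WT M1 was high for *Nrn1* (16.8 CPM), *Nr4a2* (3.75 CPM), *Otp* (1.87 CPM) and *Casr* (1.105 CPM), and LacQ140_8M M3 for *Nr4a2* (9.62 CPM). LacQ140_8M F2 was high for *Gabra6* (2.90 CPM), a gene of cerebellar granule cells. LacQ140_8M F5, which is not one of those libraries, was high for *Otp* (1.74 CPM) and *Pcdhgc4* (406.5 CPM).

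Single libraries also stood out for genes of the main comparison. LacQ140_8M F4 was highest for *Pcdhb4* (4.04 CPM), LacQ140_8M F1 lowest for *Vwa7* (0.498 CPM), and WT M5 highest for *Kcng1* (49.7 CPM) and *Hcrt* (0.682 CPM). Near the limit of detection, WT M4 had 0.143 CPM of *Gm17130* and WT F3 0.141 CPM of *Gm2420*.

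The effect of the genotype after late lowering differed from the effect without lowering, by a test of the difference itself, for *Inppl1* (0.42 on the log2 scale, adjusted p = 0.0065) and *Gabra6* (5.37, adjusted p = 0.0094), of which the second rests on LacQ140_8M F2. The causes were not tested.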

How the results depend on the processing

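The count of genes called in LacQ140_8M against WT stayed within 1.5 times of 2751 in all settings, from 2065 to 3050 and from 2433 (without WT F5) to 2992 (without LacQ140_8M F5), except that 4363 were called with no bound on fold change. Of 90 named genes called, 68 kept their call in every setting in which they were tested and none reversed, and the length slope cost 14 calls, pooled WT groups 13 and leaving out the 5 libraries 10. *Gm2420* is among the 68 but was not tested with filterByExpr. LacQ140_8M against LacQ140 moved from 2 genes to 1 with DESeq2, filterByExpr, only the groups compared, the length slope or without the 5 libraries, and to 4 with the replicate block, and spanned 0 to 3 with a library left out. The gene called with the length slope and the gene called without the 5 libraries were neither of those 2. WT + IPTG against WT moved from 77 to 128 with DESeq2, 150 with filterByExpr, 14 with the block, 13 with only the groups compared and 6 without the 5 libraries, and spanned 1 (without WT + IPTG F1) to 412 (without WT + IPTG M4). The difference of the effects moved from 2 to 17 with DESeq2 and to 1 with filterByExpr, the length slope or without the 5 libraries, and spanned 1 to 20 (without WT + IPTG M4). Genes near 0 reversed, *Hcrt* from -0.61 to 0.996 with the length slope and between -0.99 and 0.70 with a library left out, *Otp* from 0.43 to between -0.45 and 2.55, and *Casr* from 0.28 to between -0.42 and 2.29. Other than by construction, the causes were not tested.

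Replicate numbers were shared by LacQ140_8M and WT in 8 pairs, whose residuals correlated by -0.261 to 0.182, with 1 pair over 0.1, so the numbers were not taken to pair the mice. With the replicate block 2561 genes were called in place of 2751. The counts cannot resolve alleles, strand or cell type, and genes under 1 CPM rest on few reads.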
